A study of Mus musculus with 18 samples.

Results

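Moesin (Msn), radixin (Rdx) and ezrin (Ezr) are the ERM proteins, which tie actin filaments to the plasma membrane. They are described here with merlin (Nf2), the PDZ scaffold NHERF1 (Slc9a3r1) and drebrin (Dbn1). The 6 genes were picked by symbol from tables of 55487 genes, and all 6 passed the filter on low counts in both experiments, in which 18202 and 18897 genes were tested. The choice was made knowing that Msn is lower and Dbn1 higher after knockdown of Smndc1. Their differences from empty-vector cells are therefore descriptions without a test, while the other 4 genes and the split between reporter-positive and reporter-negative cells were tested. Members, gene lists and tests were all chosen with earlier results of these data known, so these p-values are not free of that choice either.

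All 18 libraries come from alphaTC1, a mouse line of glucagon-producing pancreatic alpha cells, so every group is a variant of the same line. In experiment 1, cells were transduced with an empty vector (EV, 3 libraries) or with an shRNA against Smndc1 (shSmndc1, 3 libraries), and the series' design text places the harvest at day 5. Smndc1 encodes a Tudor-domain protein of the splicing machinery. All cells of experiment 2 additionally carried RIP-mCherry, a fluorescent protein under the rat insulin promoter, and the groups were empty vector (EV_RIP, 4 libraries), shRNA cells sorted as mCherry-negative (shSmndc1_RIP_neg, 4 libraries) and shRNA cells sorted as mCherry-positive (shSmndc1_RIP_pos, 4 libraries). The reporter reads the activity of a rat promoter and not insulin itself. For experiment 2 the labels give no day and do not say whether EV_RIP cells passed through the sorter. Nor is it stated that replicates were grown separately. The p-values therefore rest on the scatter among these libraries, part or all of which may be technical.

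ERM proteins carry an N-terminal FERM domain that binds membrane proteins and a C-terminal tail that binds actin. In the resting protein the domains hold each other shut. Binding of the lipid PIP2 and phosphorylation of a threonine near the C terminus by kinases such as LOK (Stk10) and SLK open it. Merlin shares the FERM domain but lacks the actin-binding tail, and it acts as a tumour suppressor upstream of the Hippo kinases. NHERF1 binds the FERM domain through its own C terminus, and drebrin binds along actin filaments in neurites and cell cortex.

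The coding ends of the 3 ERM genes and of Slc9a3r1 are shown because they hold the parts that define the family: the actin-binding tail with its regulatory threonine, and the tail by which NHERF1 holds on to ERM proteins. Each sequence is the last 34 codons with the stop, 102 bases, read 5′ to 3′ from the GRCm38 genome with the GENCODE annotation. Capitals mark the codon of the threonine, number 558 of 577 in Msn, 564 of 583 in Rdx and 567 of 586 in Ezr, counted from the start codon. The Slc9a3r1 end has no capitals.
Msn, chrX:96166533-96166634, plus strand: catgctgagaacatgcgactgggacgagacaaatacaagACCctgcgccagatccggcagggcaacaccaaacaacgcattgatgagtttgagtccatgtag
Rdx, chr9:52086378-52086479, plus strand: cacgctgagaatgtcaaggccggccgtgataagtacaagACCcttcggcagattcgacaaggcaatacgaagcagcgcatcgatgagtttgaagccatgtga
Ezr, chr17:6739303-6739404, minus strand: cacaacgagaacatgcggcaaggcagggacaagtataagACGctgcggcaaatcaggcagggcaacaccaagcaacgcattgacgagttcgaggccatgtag
Slc9a3r1, chr11:115180408-115180509, plus strand: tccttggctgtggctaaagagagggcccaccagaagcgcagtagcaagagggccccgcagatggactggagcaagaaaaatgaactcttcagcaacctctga

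Close as they are, the 3 ERM transcripts can be told apart by reads of the length used here. Aligned over their coding sequences, Msn and Ezr were identical at 73.8% of bases, Msn and Rdx at 71.9%, Rdx and Ezr at 70.4%, and Msn and Nf2 at 63.4%. The longest identical run between any of these pairs was 32 bases, in Msn and Ezr. Among all stretches of 75 bases in the members' transcripts, 0 occurred in another member, and only Msn had any in another gene, 62 of 6251, all shared with Gm24718 on the opposite strand. Msn (ENSMUSG00000031207) lies on chromosome X at 96096042 to 96168552, Ezr (ENSMUSG00000052397) on chromosome 17 at 6738041 to 6782784, and Rdx (ENSMUSG00000032050) on chromosome 9 at 52047173 to 52100463 in the deposited table. Nf2 (ENSMUSG00000009073) lies on chromosome 11 at 4765845 to 4849536, Slc9a3r1 (ENSMUSG00000020733) on the same chromosome at 115163341 to 115181181, and Dbn1 (ENSMUSG00000034675) on chromosome 13 at 55473429 to 55488111. Whether the authors' counts used strand is not given in the sources used here. Exonic bases under a gene on the other strand made up 2.15% of Msn, 0.122% of Ezr and 0 of the other 4. For Rdx this and the 75-base check used the GENCODE gene, which ends at 52088735, short of the deposited end.

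Library totals ran from 34 to 103 M counts, apart from reporter-negative replicates 3 and 4 at 8.1 and 23.7 M. Levels are given as CPM (read counts relative to a library size scaled by the TMM method). Smndc1, the target, was at 35.1 to 41.9 CPM in EV and 9.52 to 10.5 CPM in shSmndc1 libraries (log2 fold change -1.94, SE 0.13, edgeR adjusted p = 0.00145). In experiment 2 it was at 37.6 to 54.9 CPM in EV_RIP, 23.9 to 44.6 CPM in reporter-negative and 16.0 to 25.2 CPM in reporter-positive cells. The fall passed the test in positive cells (-1.15, SE 0.20, edgeR adjusted p = 0.00384) and did not in negative cells (-0.27, SE 0.20, edgeR adjusted p = 0.378), whose values overlapped the controls. Some libraries stood apart in RNAs that signal RNA quality or handling. The shSmndc1 replicate 3 had 8.82 CPM of Rn7sk and 1083 CPM of Malat1, against at most 4.38 and 478 CPM in the other libraries of experiment 1. Reporter-negative replicates 2, 3 and 4 had 18.6, 161 and 45.4 CPM of Rn7sk, EV_RIP libraries 5.24 to 14.2 CPM and reporter-positive libraries 2.44 to 4.68 CPM. Malat1 separated EV_RIP (109 to 286 CPM) from negative (449.9 to 688 CPM) and positive libraries (287 to 669.6 CPM) without overlap, and the part of these RNAs in the differences from EV_RIP was not tested. Of 8 alpha cell markers 7 reached a mean of 1 CPM in each of the 5 groups, with Gcg, the glucagon gene, at 3774 to 19422 CPM, as the alpha cell label says. The beta cell marker Ins2 was at 0.123 to 0.506 CPM in EV and 2.21 to 3.63 CPM in shSmndc1 libraries, and at 0.518 to 3.39 CPM in EV_RIP, 1.59 to 5.13 CPM in negative and 6.12 to 13.7 CPM in positive libraries. Of 8 beta cell markers 2 of 4 tested rose at day 5, 0 of 5 in negative and 4 of 5 in positive cells. Of all genes 7.22%, 8.17% and 8.47% rose in these comparisons. Positive cells were sorted by a reporter under the rat insulin promoter, so their insulin markers are not independent of the sort. The summed beta markers ran from 57.3 to 59.7 CPM in EV, 48.9 to 54.7 in shSmndc1, 55.8 to 77.5 in EV_RIP, 58.1 to 82.0 in negative and 65.5 to 94.7 CPM in positive libraries, and Pdx1 was at most 0.0262 CPM in all. The marker Nkx6-1 made up most of each sum, with means of 57.1, 45.1, 58.2, 65.2 and 66.6 CPM in these groups. The sums therefore say little about the other beta markers. The part of these markers in the Msn and Ezr results was not tested.

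In control cells the members covered a wide range of levels. On the deposited FPKM scale, which divides by gene length and so allows genes to be compared, Msn led in EV cells with 82.9 ± 8.90 (SD, n = 3), and 4.62% of tested genes were higher. Next came Nf2 with 56.0 ± 1.24, Rdx with 31.0 ± 2.12, Slc9a3r1 with 13.2 ± 1.83, Dbn1 with 7.69 ± 0.673 and Ezr with 0.503 ± 0.218 FPKM. Neighbours in this order did not overlap in any of the EV libraries. EV_RIP cells gave the same order, at 80.5, 53.9, 26.6, 21.2, 7.87 and 0.697 FPKM. There only Rdx and Slc9a3r1 overlapped, the lowest Rdx library lying at 23.8 FPKM and the highest Slc9a3r1 library at 25.1 FPKM. The FPKM of the 2 experiments were scaled separately. Moesin was thus the main ERM transcript of these alpha cells, radixin the second, and ezrin was low, with 83.0% of tested genes above it in EV cells.

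**Figure D1:**
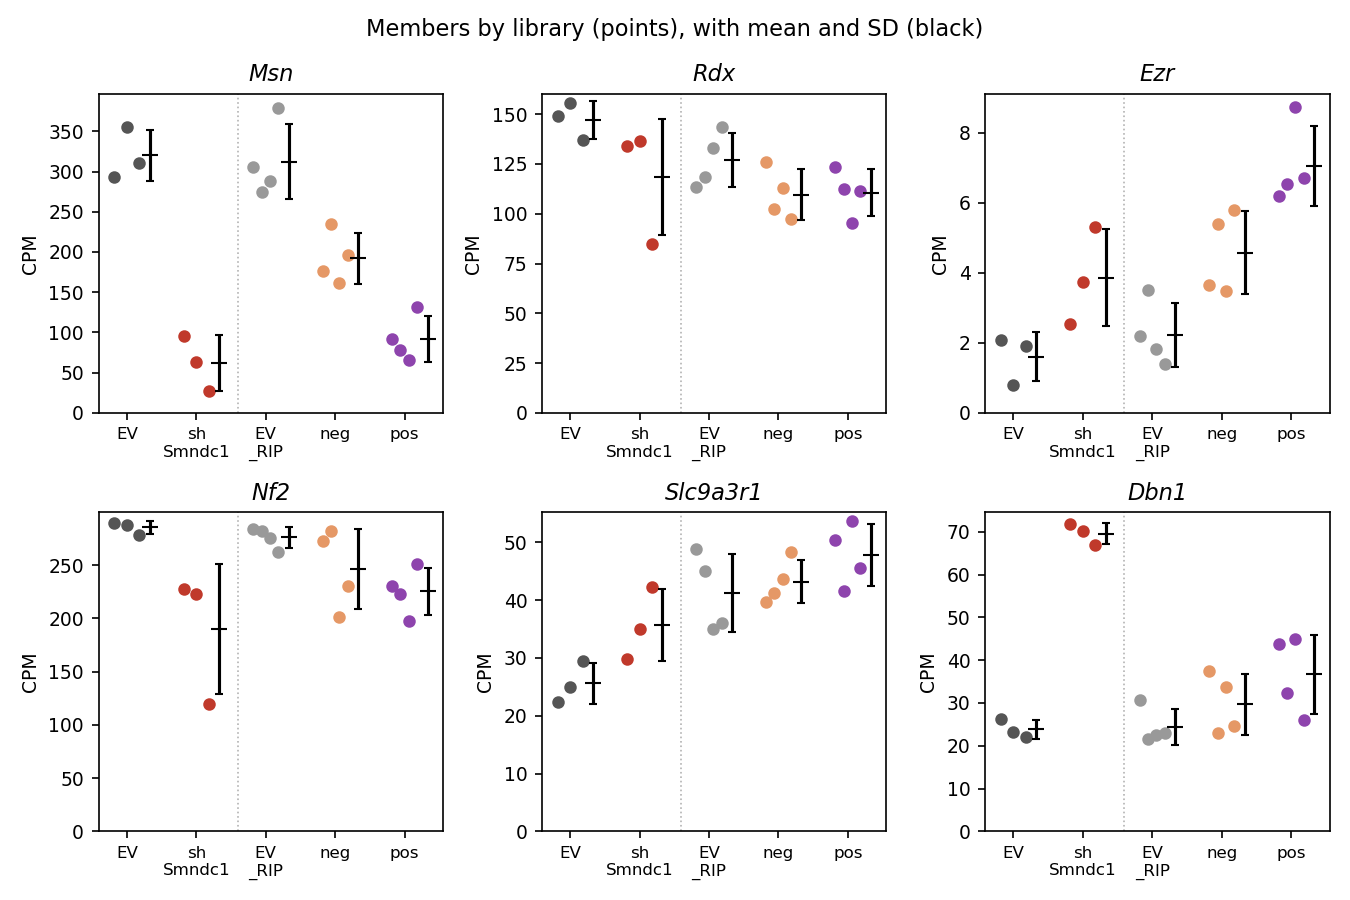
Level of each member in every library, in CPM on axes that start at 0. Points are libraries in order of replicate number, black marks are the mean with its SD, and the dotted line separates the 2 experiments (EV and shSmndc1, then EV_RIP, reporter-negative and reporter-positive cells). Msn steps down from EV_RIP to negative to positive cells without overlap, and the lowest Msn, Rdx and Nf2 values of experiment 1 all belong to shSmndc1 replicate 3.

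Moesin transcript was lower in every knockdown library than in every control. EV libraries 1 to 3 held 293, 356 and 310.5 CPM of Msn, and shSmndc1 libraries 95.8, 63.5 and 27.1 CPM. The knockdown values spread widely, with replicate 3 lowest. The log2 difference was -2.36 (SE 0.38), a 5.15-fold lower level, and it was -2.01 without shSmndc1 replicate 3. In experiment 2, EV_RIP libraries 1 to 4 held 306, 275, 289 and 379 CPM. Reporter-negative libraries held 177, 235, 162 and 196 CPM, and reporter-positive libraries 92.3, 78.3, 65.4 and 131 CPM. The 3 groups did not overlap. Against EV_RIP the log2 difference was -0.70 (SE 0.19) in negative and -1.77 (SE 0.19) in positive cells, contrasts that share the control libraries. Controls above negative and negative above positive cells without overlap was an order seen in 69 of 18897 genes (0.365%) and in no other member. Msn was chosen for lying below the controls, so this share only describes it. In bulk RNA, fewer cells with a transcript and less of it in each cell cannot be told apart. The intermediate level of negative cells went along with a smaller reduction of Smndc1 in the same libraries, and the part of that in the result was not tested.

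Ezrin, the ERM protein typical of epithelial microvilli, moved the other way from a very low base. EV libraries 1 to 3 showed 2.09, 0.798 and 1.92 CPM, and the knockdown libraries 2.54, 3.73 and 5.30 CPM, resting on 41 to 248 counts per library. The groups did not overlap, but the difference of 1.27 (log2, SE 0.40) missed the threshold (edgeR adjusted p = 0.0626). In experiment 2, EV_RIP libraries held 2.189, 3.503, 1.81 and 1.39 CPM, negative libraries 3.64, 5.39, 3.49 and 5.80 CPM, and positive libraries 6.19, 6.54, 8.72 and 6.70 CPM. Negative replicate 3 overlapped the highest control, while all positive libraries lay above both other groups. Ezr rose in positive cells by 1.65 (log2, SE 0.27, edgeR adjusted p = 0.00286), which is 3.14-fold, and passed under each of 13 alternatives. It also rose in negative cells by 1.05 (log2, SE 0.27, edgeR adjusted p = 0.0263). That call was lost when any of 5 libraries was left out: EV_RIP replicate 1 (edgeR adjusted p = 0.0691), 3 (0.0712) or 4 (0.0505), or negative replicate 2 (0.0855) or 4 (0.101). Without negative replicates 3 and 4 the estimate was 1.01 (edgeR adjusted p = 0.221), and with only the 2 groups in the fit it was 1.06 (edgeR adjusted p = 0.0608).

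Markers of acinar and duct cells, where ezrin is also expressed, moved with Ezr as a summed level: 22.6 to 31.9 CPM in EV_RIP, 27.3 to 43.4 in negative and 51.9 to 98.4 CPM in positive cells, and 21.5 to 25.4 in EV against 29.5 to 43.6 CPM in shSmndc1. Of the 8 markers 3 reached a mean of 1 CPM in each group. Spp1, a secreted phosphoprotein, made up most of the sum in positive cells with 28.1 to 72.0 CPM. Its means were 6.26, 13.4 and 43.0 CPM in EV_RIP, negative and positive cells, and 4.03 and 14.7 CPM in EV and shSmndc1. Sox9 and Cela1 did not follow the sum throughout. In the same order Sox9 had 6.80, 8.48 and 6.58 CPM, then 9.72 and 13.4 CPM. Cela1 had 13.8, 13.1 and 16.1 CPM, then 8.82 and 7.05 CPM. The defining markers Krt19 and Ptf1a were at most 0.261 CPM and at 0 in all 18 libraries, respectively. The part of these cell type markers in the Ezr result was not tested.

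Radixin did not pass in any comparison. EV libraries held 149, 156 and 137 CPM of Rdx, the knockdown ones 134, 136 and 84.8 CPM, a log2 difference of -0.31 (95% interval -0.72 to 0.09, edgeR adjusted p = 0.262). Replicate 3 set most of this difference, which was -0.13 without it. The ranges in experiment 2 were 113 to 143 CPM in EV_RIP, 97.2 to 126 CPM in negative and 95.1 to 124 CPM in positive cells, and all 3 overlapped. Against EV_RIP the differences were -0.21 (interval -0.46 to 0.03, edgeR adjusted p = 0.212) in negative and -0.20 (interval -0.45 to 0.05, edgeR adjusted p = 0.238) in positive cells. The intervals leave room for a loss of up to 0.72 on the log2 scale at day 5 and of up to 0.46 in experiment 2.

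With less moesin and a smaller difference in radixin, the make-up of the ERM transcript pool differed between groups. The summed FPKM of Msn, Rdx and Ezr was 107, 126 and 109.6 in EV libraries and 53.6, 46.2 and 26.0 in shSmndc1 libraries. Msn made up 70.4%, 73.6% and 73.2% of the sum in EV and 46.2%, 35.5% and 26.5% in shSmndc1 libraries. The share of Rdx was 26.2 to 29.0% in EV and 52.4 to 67.3% in shSmndc1 libraries, above that of Msn in all 3. In experiment 2 the share of Msn was 72.4 to 76.4% in EV_RIP, 62.4 to 72.4% in negative and 42.7 to 57.2% in positive libraries. Of the 4 positive libraries, 3 held more Rdx than Msn and replicate 4 did not. Ezr was a small fraction in all libraries, 0.200 to 1.13% in controls, 1.49 to 6.29% in shSmndc1, 1.56 to 2.50% in negative and 3.54 to 6.91% in positive libraries. The shares of Msn describe the same values by which it was chosen, and no test was made of them.

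**Figure D2:**
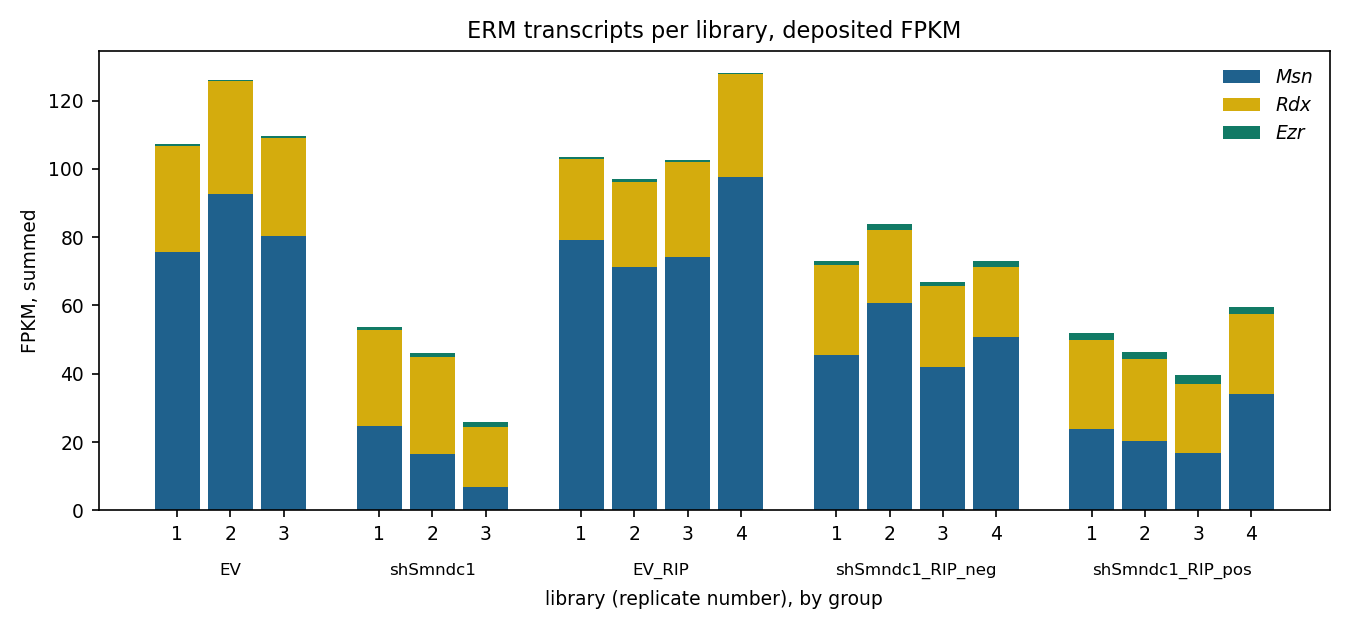
Deposited FPKM of the 3 ERM transcripts stacked for each library, with libraries ordered by group and replicate number and the axis starting at 0. Blue is Msn, yellow Rdx and green Ezr: the blue part shrinks in shSmndc1 and reporter-positive libraries, the yellow part differs less, and the summed level runs from 26.0 FPKM in shSmndc1 replicate 3 to 128 FPKM in EV_RIP replicate 4.

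Merlin transcript was lower in knockdown libraries without passing the test. EV libraries held 289.5, 288 and 278 CPM of Nf2 and those with the shRNA 227, 223 and 119.9 CPM, which did not overlap. The log2 difference was -0.59 (SE 0.22, edgeR adjusted p = 0.106). Without shSmndc1 replicate 3 it was smaller and passed (-0.35, edgeR adjusted p = 0.0309). In experiment 2 the levels were 262 to 284 CPM in EV_RIP, 201 to 282 CPM in negative and 197 to 251 CPM in positive cells. Positive cells did not overlap the controls, yet the difference of -0.29 (SE 0.11) missed the threshold (edgeR adjusted p = 0.0877), and in negative cells it was -0.16 (SE 0.11, edgeR adjusted p = 0.342). Without negative replicates 3 and 4, the libraries with the most Rn7sk, the latter was close to 0 (-0.00063, edgeR adjusted p = 0.998).

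NHERF1, the scaffold that ERM proteins hold beneath the membrane, was slightly higher in knockdown libraries of experiment 1. In EV libraries Slc9a3r1 stood at 22.4, 25.0 and 29.4 CPM, after knockdown at 29.8, 35.1 and 42.3 CPM, adjoining ranges whose difference did not pass (log2 0.48, SE 0.16, edgeR adjusted p = 0.0772). In experiment 2 controls already ranged from 35.1 to 48.8 CPM, negative cells from 39.7 to 48.2 CPM and positive cells from 41.6 to 53.7 CPM. The differences from EV_RIP were 0.07 (SE 0.13, edgeR adjusted p = 0.754) and 0.21 (SE 0.13, edgeR adjusted p = 0.257), and the sign in negative cells turned without EV_RIP replicate 3 (-0.0063).

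Drebrin transcript was higher after knockdown in experiment 1 by a wide margin. The 3 EV libraries held 26.2, 23.2 and 21.99 CPM of Dbn1, the 3 shSmndc1 libraries 71.7, 70.1 and 66.9 CPM. The libraries of each group lay close together, and the log2 difference was 1.55 (SE 0.12), a 2.92-fold higher level that stayed between 1.49 and 1.61 when any library was left out. Experiment 2 looked different. EV_RIP libraries held 30.7, 21.6, 22.5 and 23.1 CPM, negative libraries 37.5, 22.9, 33.8 and 24.5 CPM, and positive libraries 43.8, 32.3, 44.9 and 25.9 CPM. Both sorted groups overlapped the controls. Positive cells did so only through EV_RIP replicate 1, while negative replicate 2 also lay below EV_RIP replicate 4. The log2 differences were 0.28 (SE 0.20) in negative and 0.59 (SE 0.20) in positive cells. The effect in experiment 1 was larger than in positive cells by 0.97 (log2, SE 0.27), a value given without a test. For Smndc1 itself the same difference of effects was -0.78 (log2, interval -1.36 to -0.21, edgeR adjusted p = 0.998). The experiments, their day and the sort cannot be told apart here.

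For the members that were tested, the effects in the 2 experiments did not differ detectably. The effect at day 5 minus that in reporter-positive cells was -0.37 for Ezr (interval -1.36 to 0.62), -0.10 for Rdx (-0.55 to 0.34), -0.28 for Nf2 (-0.78 to 0.22) and 0.28 for Slc9a3r1 (-0.16 to 0.71), each with an edgeR adjusted p of 0.998. Over all 20036 genes this contrast called 0 genes with edgeR (861 at an unadjusted p under 0.05). DESeq2 called 3 of 38331 genes. The intervals are wide enough to hold differences of the size of the effects themselves.

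The members' calls can be set beside those of all genes. Of all tested genes 14.7% passed at day 5 (7.22% higher, 7.5% lower), and of the 4 members tested there 0 did. Groups did not overlap for all 6 members in that comparison, against 39.5% of all genes, and Msn and Dbn1 were chosen for it. In negative cells 13.9% of genes passed (8.17% higher, 5.69% lower) and 1 of 4 members did. In positive cells 17.4% passed (8.47% higher, 8.92% lower) and again 1 of 4 did, Ezr in both, with shared controls. Groups without overlap made up 14.4% and 23.4% of genes in these comparisons, and 1 and 3 members.

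**Figure D3:**
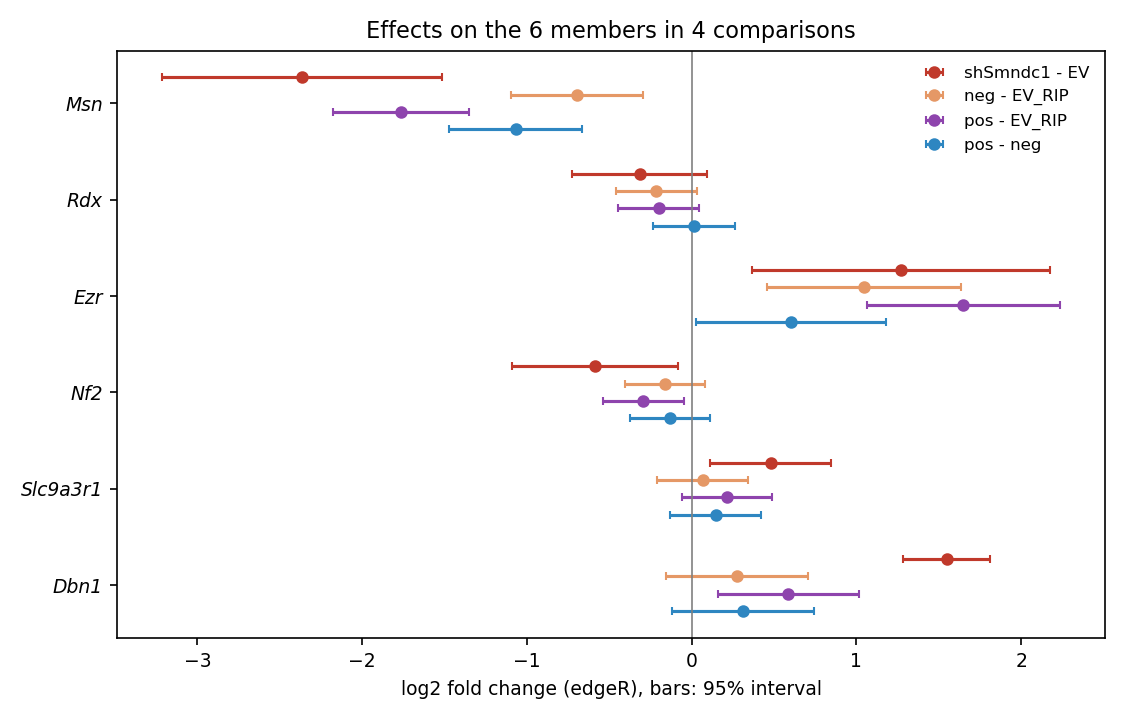
Log2 fold change of each member in 4 comparisons, as points with their 95% interval from edgeR. Red is shSmndc1 minus EV, orange negative minus EV_RIP, purple positive minus EV_RIP and blue positive minus negative. Msn lies at -2.36, -0.70, -1.77 and -1.07 and Ezr to the right of 0 in all 4, and the intervals of Msn and Dbn1 against empty vector describe spread only.

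The choice named the change after knockdown and not the split between sorted fractions, and both fractions carry the shRNA. Both fractions are among the knockdown libraries, however, so the p-values of Msn and Dbn1 here are not independent of the choice. Msn was lower in positive than in negative cells, with every positive library below every negative one. Groups did not overlap for 6.58% of all genes. The log2 difference was -1.07 (SE 0.19, 95% interval -1.47 to -0.66), a 2.10-fold lower level. Its unadjusted p was 5.3e-05, but in the fit without pairing edgeR called 0% of genes (2314 of 18897 at an unadjusted p under 0.05, and 315 by DESeq2), and the edgeR adjusted p for Msn was 0.127. Negative and positive libraries of the same number deviated together, however, with correlations of 0.22 to 0.71. Those of different numbers gave -0.58 to 0.40, and the sample titles state no pairing. With the number as a replicate block, Msn fell by 1.10 (log2, SE 0.15, edgeR adjusted p = 0.0286) and 78 genes were called. A blocked fit of the 8 sorted libraries alone, added after the data were seen, gave -1.10 (SE 0.13, edgeR adjusted p = 0.000477), with 8.43% of 17994 genes called (3.71% higher, 4.72% lower) and 1 of 6 members, Msn.

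Within the pairs, positive cells held 52.1%, 33.3%, 40.4% and 67.1% of the Msn level of the negative cells of the same number, lower in 4 of 4. Smndc1 was likewise lower in 4 of 4 pairs, at 69.5%, 51.6%, 44.0% and 56.6%, and the part of its level in the Msn difference was not tested. Ezr was higher in 4 of 4 pairs, at 170.2%, 121%, 250.2% and 115.5% of the negative level, and Dbn1 in 4 of 4, at 116.8%, 141%, 133% and 106%. Neither passed: for Ezr the log2 difference was 0.60 (interval 0.02 to 1.18, edgeR adjusted p = 0.391, or 0.0656 in the blocked fit of 8 libraries), and for Dbn1 0.31 (interval -0.12 to 0.74, edgeR adjusted p = 0.552, or 0.0866). Rdx (0.01, interval -0.23 to 0.26), Nf2 (-0.13, interval -0.38 to 0.11) and Slc9a3r1 (0.15, interval -0.13 to 0.42) had mixed signs among the pairs.

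**Figure D4:**
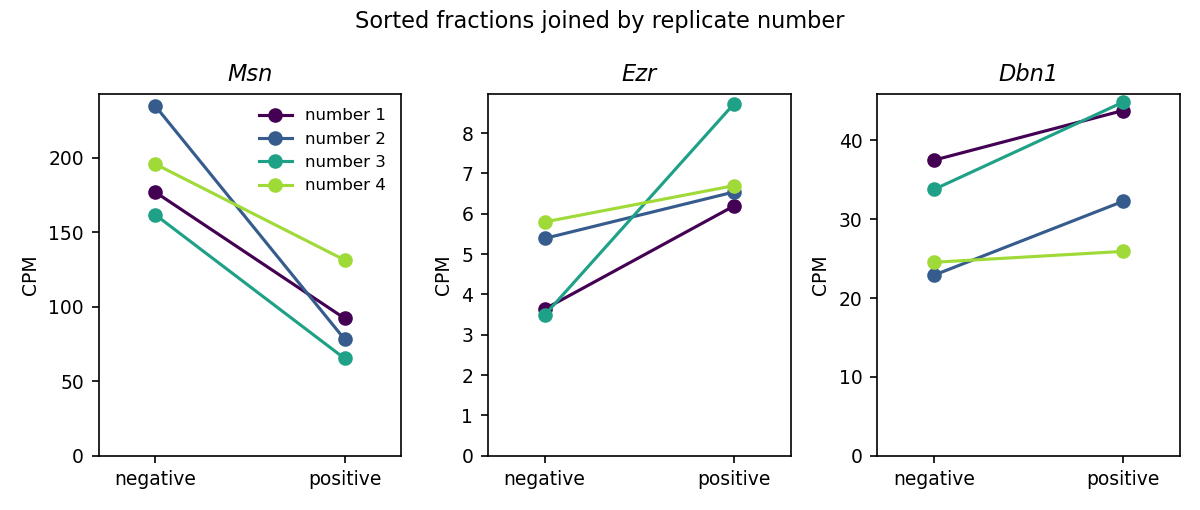
Levels of Msn, Ezr and Dbn1 in CPM in the reporter-negative and reporter-positive libraries, joined by replicate number, on axes that start at 0. All 4 lines slope down for Msn, from 162 to 235 CPM to 65.4 to 131 CPM, and all 4 slope up for Ezr and for Dbn1, neither of which passed the test.

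Across the 18 libraries the members varied together to some extent. With the mean of each experiment removed, log2 CPM of Msn had a Pearson r of 0.87 with Nf2, 0.70 with Rdx, -0.85 with Ezr, -0.84 with Dbn1 and -0.74 with Slc9a3r1. These are descriptions: the points share the group differences that chose Msn and Dbn1. Among 10326 genes with a mean of at least 5 CPM, those most like Msn were Zfyve27 (r = 0.990), Dusp3 (0.988), Metap2 (0.983), Rnf149 (0.980) and Pnp (0.979). Their log2 differences at day 5 were -0.62, -1.64, -0.86, -1.27 and -2.42, and in positive cells -0.47, -1.24, -0.55, -0.86 and -1.51. Dusp3, a dual-specificity phosphatase, and Pnp, a purine nucleoside phosphorylase, came closest to Msn in size. For Dbn1 the nearest were Lrp5 (0.918), a Wnt co-receptor, Ggnbp1 (0.908), Gga2 (0.907), Rcn1 (0.907) and Trpv2 (0.906), at 1.42, 0.96, 0.86, 1.14 and 1.24 at day 5, beside 1.55 for Dbn1.

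Beyond the members, 8 lists of genes around them were examined: kinases and activators of ERM proteins, membrane partners, other FERM proteins, the Hippo pathway, drebrin partners, spectrin-type linkers, adhesion and bundling proteins, and actins. Of 136 listed genes 106 were tested at day 5 and 110 in experiment 2. At day 5, 14 passed (10 higher, 4 lower), which is 13.2%, close to the 14.7% of all genes. In negative cells 17 passed (11 higher, 6 lower), 15.5% beside 13.9%, and in positive cells 27 passed (17 higher, 10 lower), 24.5% beside 17.4%. The median log2 fold changes were 0.06, 0.01 and 0.04, beside -0.0029, -0.0090 and 0.0011 over all genes. These counts moved with the fit and with single libraries, as did the calls over all genes. The day 5 count was 23 with no filter and 23 by DESeq2, 1 without EV replicate 2 or without EV replicate 3 and 3 without shSmndc1 replicate 2, and over all genes the last 3 of these fits called 550, 181 and 627 genes. In negative cells it was 30 with the replicate number as a block, 11 with only the 2 groups in the fit, 4 without EV_RIP replicate 1, 10 without EV_RIP replicate 3, 38, 3, 7 and 1 without negative replicates 1 to 4, and 0 without negative replicates 3 and 4 together. In positive cells it was 8, 12 and 14 without EV_RIP replicates 1, 3 and 4, and 8, 10 and 12 without positive replicates 2, 3 and 4. Of the calls of genes picked by smallest p within each list, 13 of 14 at day 5 were lost without EV replicate 2 and without EV replicate 3, in both cases all but Flna. In negative cells 14 of 15 were lost without negative replicate 4, all but Plec, and 12 without negative replicate 2. In positive cells 15 of 22 were lost without EV_RIP replicate 1 and 14 without positive replicate 2. None changed sign in any of these fits.

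**Figure D5:**
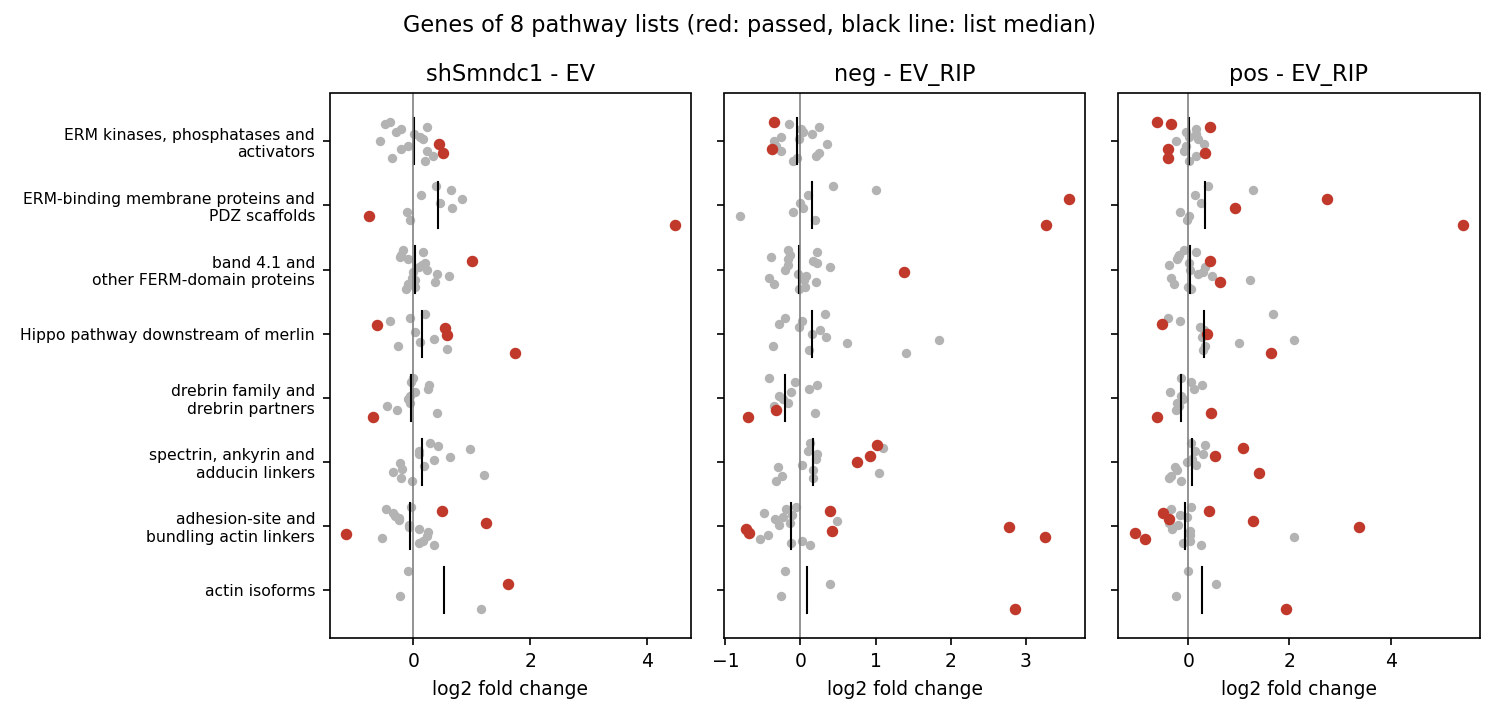
Log2 fold change of every tested gene of the 8 pathway lists in shSmndc1 against EV, negative against EV_RIP and positive against EV_RIP, with separate horizontal scales. Red points passed edgeR's test, grey did not, and black lines are list medians; most genes lie near 0, and the farthest red point in the first and last panels is Icam1, at 4.47 and 5.44.

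Among regulators of ERM proteins, 17 genes were tested and 2 passed at day 5, beside 14.7% of all genes. Pip5k1a, which makes the PIP2 that opens ERM proteins, rose from 84.2 to 120.3 CPM (log2 0.51, SE 0.12, edgeR adjusted p = 0.0285), and Ppp1r12a, the targeting subunit of the phosphatase that closes them, from 58.5 to 79.7 CPM (0.45, SE 0.11). In positive cells 2 rose and 4 fell, beside 17.4% of all genes called (8.47% higher, 8.92% lower). Stk25 fell from 144 to 94.2 CPM (-0.61, SE 0.09, edgeR adjusted p = 0.0019) and in negative cells to 112 CPM (-0.35, SE 0.09). Pip5k1c fell in both sorted fractions, from 98.1 CPM to 75.4 in negative and 74.2 CPM in positive cells. Stk10, the ERM kinase LOK, rose in positive cells from 38.1 to 51.3 CPM (0.43, SE 0.13, edgeR adjusted p = 0.0351), while Stk24 fell from 40.4 to 31.8 CPM. Pip5k1a lost its call without EV replicates 1, 2 or 3 or shSmndc1 replicates 1 or 2, and Ppp1r12a without EV replicates 2 or 3, without shSmndc1 replicate 2, with no filter or with the replicate block. Stk10 and Stk24 lost theirs in positive cells with no filter and without EV_RIP replicates 1, 3 or 4 or positive replicates 1, 2 or 3, Stk10 also without positive replicate 4 and Stk24 with only the 2 groups in the fit. Pip5k1c lost its call there without EV_RIP replicate 1 or positive replicate 2. The fall of Stk25 in positive cells held when any library was left out. In negative cells the calls of Stk25 and Pip5k1c were lost without EV_RIP replicates 1 or 4, without negative replicates 2, 3 or 4 or with only the 2 groups, and that of Stk25 also without EV_RIP replicate 3.

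Of 17 listed membrane partners and PDZ scaffolds of ERM proteins 10 were tested. The other 7, among them the hyaluronan receptor Cd44 at no more than 0.516 CPM, fell below the filter in both experiments. Icam1, an adhesion receptor, was at 0.0982, 0 and 0.160 CPM in the EV libraries, at 0.776, 1.13 and 3.80 CPM in the shSmndc1 libraries, at 0 to 0.0883 CPM in EV_RIP, 0.166 to 0.811 CPM in negative and 0.374 to 6.02 CPM in positive libraries. It rose in all 3 comparisons (edgeR adjusted p = 0.0167, 0.0344 and 0.00281), from at most 9 counts in any control library. The call at day 5 was lost without EV replicate 2 or 3, that in negative cells without EV_RIP replicates 1, 3 or 4 or negative replicates 2, 3 or 4, and that in positive cells held when any library was left out. Podxl, the sialomucin podocalyxin, rose in positive cells, with 45.1, 34.7, 29.5 and 25.7 CPM against 16.3 to 20.1 CPM in EV_RIP (log2 0.92, SE 0.22, edgeR adjusted p = 0.0144). Selplg rose in both fractions, from 0.0625 to 0.304 CPM in EV_RIP to 0.262, 1.42, 3.25 and 3.26 CPM in negative and 0.484 to 1.96 CPM in positive libraries, and negative replicate 1 overlapped the controls. The call was lost without negative replicate 4, and in positive cells without EV_RIP replicates 1 or 3 or positive replicate 3. Pdpn, podoplanin, fell at day 5 from 9.29 to 5.44 CPM (-0.77, SE 0.21, edgeR adjusted p = 0.0400), a call lost in each fit without a library other than shSmndc1 replicate 3.

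Icam1 and Selplg are also expressed by endothelial cells and leukocytes, whose marker sums moved in part with them. The 5 endothelial markers summed to 1.43 to 2.36 CPM in EV_RIP, 2.51 to 8.66 CPM in negative and 1.81 to 4.83 CPM in positive cells. The 6 leukocyte markers summed to 15.6 to 20.4, 21.2 to 31.1 and 20.4 to 25.3 CPM, with Ptprc at most 0.481 CPM, 4 or fewer counts in a library, and Cd3e at most 0.0262 CPM. At day 5 the endothelial sums overlapped, at 1.17 to 2.29 CPM in EV and 1.44 to 2.18 CPM in shSmndc1. The leukocyte sums there were 17.1 to 25.3 and 23.7 to 28.0 CPM. Cd68 and Csf1r made up most of the leukocyte sums. Itgam went the other way, with means of 0.892, 0.427 and 0.587 CPM in EV_RIP, negative and positive cells. In EV and shSmndc1 its means were 0.525 and 0.107 CPM. The negative libraries with the most Selplg, replicates 3 and 4, also had the most Rn7sk. The part of these markers and libraries in the rise of Icam1 and Selplg was not tested.

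Of the linkers at adhesion sites 3 of 18 passed at day 5 (2 higher, 1 lower), 6 of 20 in negative cells (4 higher, 2 lower) and 7 of 20 in positive cells (3 higher, 4 lower). Of all genes 14.7%, 13.9% and 17.4% passed in these comparisons. Flna, filamin A, which crosslinks cortical actin, had 396, 354 and 410.2 CPM in the EV libraries, 198, 167 and 157 CPM in the knockdown ones, and fell by 1.15 (log2, SE 0.14, edgeR adjusted p = 0.00534). In experiment 2 it was at 271 to 343 CPM in EV_RIP, 154 to 269 CPM in negative and 128 to 183 CPM in positive libraries, and fell by 0.68 (SE 0.16, edgeR adjusted p = 0.0189) and 1.06 (SE 0.16, edgeR adjusted p = 0.00205). The call in negative cells was lost without EV_RIP replicate 1 or negative replicates 2, 3 or 4, while at day 5 and in positive cells it held when any library was left out. Vcl, vinculin, rose in all 3 comparisons by 0.48, 0.40 and 0.41, from 50.7 to 70.8 CPM at day 5. That call was lost without any EV replicate or without shSmndc1 replicate 2, the one in negative cells without EV_RIP replicate 1 or negative replicates 2, 3 or 4 or with no filter, and the one in positive cells only with no filter. At lower levels Lcp1 rose in both sorted fractions, from 0.0555 CPM to 0.407 and 0.620 CPM, and Pls1 at day 5 and in positive cells. The call of Lcp1 in negative cells was lost without EV_RIP replicate 1 or negative replicates 2 or 4, and that of Pls1 at day 5 in each fit without a library other than shSmndc1 replicate 1. Ctnna2, an alpha-catenin, fell in positive cells from 37.9 to 20.8 CPM (-0.86, SE 0.25), a call lost without EV_RIP replicates 1 or 4 or positive replicates 2, 3 or 4. Of the actin isoforms Actb and Actg1 did not pass in any comparison, and the muscle forms Actc1 (day 5) and Acta1 (both fractions) rose from under 1 CPM. Actc1 lost its call without any EV replicate or shSmndc1 replicate 2. Acta1 lost it in negative cells without negative replicates 2 or 4, and in positive cells without any EV_RIP replicate or positive replicates 2, 3 or 4.

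Among drebrin partners, Cdk5, the kinase that phosphorylates drebrin in neurons, fell in all 3 comparisons, from 93.7 to 57.9 CPM at day 5 (-0.70, SE 0.12, edgeR adjusted p = 0.0128) and from 109.5 to 67.3 CPM in negative and 71.3 CPM in positive cells. Its activator Cdk5r1 rose in positive cells from 8.96 to 12.2 CPM (0.45, SE 0.15, edgeR adjusted p = 0.0472), but this call was lost whichever of the 8 libraries was left out and with no filter. Cfl1, cofilin, which competes with drebrin for filaments, fell in negative cells from 706 to 563 CPM (-0.32, SE 0.10), a call that held without negative replicate 1 and was lost without each of the other 7 libraries. The other 11 of 12 tested genes at day 5 did not pass, while 14.7% of all genes did. Among FERM proteins 19 were tested: Frmd8 rose from 36.3 to 72.8 CPM at day 5 (1.00, SE 0.18, edgeR adjusted p = 0.0130) and from 36.6 to 49.5 CPM in positive cells, Epb41l3 rose in positive cells from 45.3 to 69.6 CPM, and Fermt3 in negative cells. The day 5 calls of Cdk5 and Frmd8 were lost without EV replicate 2 or 3, and that of Cdk5 also without shSmndc1 replicate 2. Cdk5 lost its call in negative cells without EV_RIP replicate 1 or negative replicates 2 or 4, and in positive cells without EV_RIP replicate 1 or positive replicate 2. In positive cells Frmd8 lost its call without EV_RIP replicates 3 or 4, without positive replicates 1, 2 or 3 or with no filter, and Epb41l3 without EV_RIP replicate 1 or any positive replicate. Fermt3 kept its call in negative cells only without negative replicate 1 among the fits that leave out a library.

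In the Hippo pathway, which merlin feeds, the kinases Stk3, Stk4 and Lats1 and the transcription factor Tead1 were tested, while several other components fell below the filter. The kinase Lats2 reached at most 0.481 CPM. The co-activator Yap1 reached at most 0.0451 CPM in any library, Wwtr1 (TAZ) 0.287 CPM and their target Ccn2 0.0397 CPM. At day 5 3 genes rose and 1 fell among 12 tested, beside 14.7% of all genes called. Sav1 rose from 29.5 to 43.0 CPM (0.54, SE 0.11, edgeR adjusted p = 0.0197), Mob1a from 99.1 to 148 CPM (0.57, SE 0.16) and Ajuba from 0.301 to 0.989 CPM, while Stk3, the kinase MST2, fell from 33.6 to 21.9 CPM (-0.62, SE 0.16). In positive cells Mob1a and Ajuba rose and Stk3 fell among 13 tested, beside 17.4% of all genes called. Mob1a lost its call there with no filter and without EV_RIP replicates 1, 2 or 3 or positive replicates 1, 2 or 4, and Ajuba and Stk3 without EV_RIP replicates 1, 3 or 4 or positive replicates 2, 3 or 4. In negative cells 0 of 13 passed with edgeR (3 at an unadjusted p under 0.05: Ajuba, Lats1 and Ccn1), beside 13.9% of all genes. At day 5 all 4 calls were lost when EV replicate 2, EV replicate 3 or the second shSmndc1 library was left out, and those of Stk3, Mob1a and Ajuba also without shSmndc1 replicate 1.

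Spectrin-type linkers did not pass at day 5 (0 of 14), and in each sorted fraction 3 of 15 rose. Of all genes 14.7% passed at day 5, and 8.17% and 8.47% rose in negative and positive cells. Plec, the crosslinker plectin, rose from 150.1 to 286 CPM in negative cells (0.93, SE 0.17, edgeR adjusted p = 0.0105) and to 216 CPM in positive cells (0.52, SE 0.17, edgeR adjusted p = 0.0427). Sptbn4 and Dst rose in negative cells, from 27.5 to 55.8 and from 187 to 314 CPM. In negative replicates 1 to 4 Sptbn4 was at 31.6, 56.6, 70.3 and 64.5 CPM. Dst was at 196, 306, 415 and 340 CPM and Plec at 196, 303, 297 and 351 CPM. Replicates 2, 3 and 4 also had the most Rn7sk. In experiment 1 these 3 genes were highest in shSmndc1 replicate 3, again the library with the most Rn7sk. The part of these libraries in the rises was not tested. In positive cells Ank1, an ankyrin, rose from 0.655 to 1.75 CPM (1.41, SE 0.36, edgeR adjusted p = 0.0193), a call lost without EV_RIP replicate 1. Without negative replicates 3 and 4 all 3 calls in negative cells were lost, those of Sptbn4 and Dst also without negative replicate 4 alone, and that of Dst without EV_RIP replicates 1 or 3 or negative replicates 2 or 3. The call of Plec in positive cells was lost without EV_RIP replicates 1, 3 or 4 or positive replicates 2, 3 or 4.

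Between positive and negative cells none of the 110 listed genes passed without pairing, with 0% of all genes called. The blocked fit of the 8 sorted libraries called 14 of 107, 7 higher and 7 lower, beside 8.43% of all genes. The smallest p-values belonged to Podxl, higher in positive cells (0.94, SE 0.11, edgeR adjusted p = 0.000519), and to Sptbn4 (-0.63, SE 0.12, edgeR adjusted p = 0.00653) and Dst (-0.73, SE 0.14, edgeR adjusted p = 0.0070), both lower. Sptbn4 and Dst were highest in negative replicates 2, 3 and 4, the libraries with the most Rn7sk. The part of these libraries in the differences was not tested.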

How the data were processed

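The authors deposited, for each of the 2 experiments, a table of raw counts per gene and a table of FPKM. Dividing the deposited FPKM by the counts gave 1 factor per library once gene length was removed, and these factors matched the size factors of the median-of-ratios method to within 3.7e-09. The genome build was GRCm38/mm10, and the tools listed in the submitters' processing notes are Picard 2.19.2, STAR 2.7.5a and DESeq2 1.30.0. How reads were assigned to genes, and whether by strand, is not given in the sources used here. Per the labels' protocols, libraries were made with a stranded mRNA kit and read as 75 bp paired ends.

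Low genes were removed with filterByExpr and libraries scaled by TMM. The quasi-likelihood test of edgeR 4.0.16 in R 4.3.3 was applied, with Benjamini-Hochberg adjustment over all genes and a threshold of 0.05. Experiment 1 was fitted on 6 libraries, experiment 2 on 12 and the difference of effects on 18. The script was tested on simulated data. Alternatives were DESeq2 1.42.0, median-of-ratios scaling, no filter, the replicate number as a block, fits of only the compared groups, and leaving libraries out. Sequences and positions came from GENCODE vM21 on GRCm38, apart from the printed end of Rdx, which is the deposited one. FPKM were used for levels only.

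Members, lists and tests were chosen with earlier results of these data known. Named are the members, Smndc1, up to 4 genes per list with the smallest p in each comparison, and for Msn and Dbn1 the 5 genes of closest pattern. Negative and positive libraries were paired by replicate number because deviations of the same number correlated at 0.71, 0.45, 0.22 and 0.45. Different numbers gave -0.58 to 0.40, and the sample titles state no pairing. Same-number correlations of control with shRNA libraries were of both signs, up to 0.60 for EV_RIP with negative replicate 2. No libraries of a group agreed within sampling noise (lowest chi-square per degree of freedom 13.5). The values of 1 listed gene are not reported here.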

Additional observations from a re-analysis of the deposited data

Results flagged for a closer look

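Dbn1 in EV_RIP replicate 1 was at 30.7 CPM, far above the other 3 EV_RIP libraries, which lay between 21.6 and 23.1 CPM. It was the only group with so distant a library among the 18 groups of 4 libraries examined, and chance gives about 1 in 20. Without it the log2 difference of Dbn1 from EV_RIP was 0.41 in negative and 0.73 in positive cells, against 0.28 and 0.59 with it. The same library had the lowest share of mitochondrial counts, 0.587%.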

How the results depend on the processing

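The number of genes called moved more than the members did. At day 5 it was 2681, 4165 without a filter and 181 to 3336 when 1 library was left out. In negative cells it was 2620, 4597 with the replicate block, 4037 by DESeq2, 1289 with only the 2 groups, 4 without negative replicates 3 and 4, 0 when EV_RIP replicate 1 was also left out (2057 at an unadjusted p under 0.05, added after the data were seen), and 159 to 5831 without 1 library. In positive cells it was 3286, 5079 with the block and 1258 to 3586 without 1 library. Between sorted fractions it was 0, 150 without a filter, 78 with the block, 1517 with the block over 8 libraries, 315 by DESeq2 and 0 to 517 without 1 library. For the difference of effects it was 0, 5 without a filter, 1 with the block and 3 by DESeq2. The cause was not tested. The replicate block also matches control with shRNA libraries by number. The sample titles state no such pairing, and same-number correlations there were of both signs. With that block Ezr (1.31, adjusted p = 0.0422), Nf2 (-0.64, 0.0490) and Slc9a3r1 (0.47, 0.0414) passed at day 5, as did Nf2 in positive cells (-0.30, 0.0490). At day 5 they also passed with no filter (adjusted p = 0.000727, 0.00712 and 0.0499), Ezr by DESeq2 (0.00847), Ezr and Slc9a3r1 without shSmndc1 replicate 1 (0.0394 and 0.0491) and Nf2 without shSmndc1 replicate 3 (0.0309). Msn in positive against negative cells passed under 6 of 15 alternatives, with adjusted p from 0.000475 to 0.962 in all 15. Signs turned for values near 0: Slc9a3r1 in negative cells (-0.0014 without a filter, -0.0063 without EV_RIP replicate 3, -0.036 without negative replicates 3 and 4, and -0.0063 to 0.16 without 1 library), Nf2 there (0.013 when EV_RIP replicate 1 was also left out), Rdx between fractions (-0.020, -0.040 and -0.045 without negative replicate 2, negative replicate 4 or positive replicate 1, -0.045 without negative replicates 3 and 4, and -0.045 to 0.098 without 1 library), and Rdx in the difference of effects (0.10 without shSmndc1 replicate 3, and -0.23 to 0.10 without 1 library). FPKM levels moved by less than their SD with TMM-scaled counts per length. Depth limits Ezr, with 29 to 455 counts per library.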
